A study of Mus musculus with 8 samples.

Results

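Sugar and lactate carriers divide the fuel supply of the brain among its cell types, and 10 genes of this supply were followed here in cells sorted from the mouse central amygdala. The genes were 5 hexose carriers of the SLC2 family (Slc2a1, Slc2a3, Slc2a5, Slc2a6 and Slc2a8), 3 monocarboxylate carriers of the SLC16 family (Slc16a1, Slc16a3 and Slc16a7) and the sugar kinases Hk2 and Khk. They were chosen by symbol, with earlier results of these data known. All 10 were present among the 20702 genes that the transcript targets of the files gave, through 13 targets in all, and 7 of the 10 had enough reads for a test. Because Slc2a5 had been singled out for its difference between the sorted populations, that contrast is given for all of them as a description, with no p-value; the counts of calls in it are listed for orientation only, and nothing is read from them.

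Glucose enters brain cells mainly through GLUT1, the product of Slc2a1, at the capillary wall and in astrocytes, and through GLUT3, the product of Slc2a3, in neurons. GLUT5, the product of Slc2a5, carries fructose rather than glucose, and in the brain it is known as a gene of microglia, the resident macrophages. Once inside, glucose is phosphorylated by hexokinases such as Hk2 and fructose by ketohexokinase, the product of Khk. Lactate and pyruvate cross membranes through MCT1, MCT2 and MCT4, the products of Slc16a1, Slc16a7 and Slc16a3, which have been assigned mainly to vessels and oligodendrocytes, to neurons and to astrocytes.

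The PKCd population came from male mice that carried PKC delta-type::Cre and a Rosa::loxP-STOP-loxP-td-Tomato reporter, and the SST population from male mice with SST::Cre and the same kind of reporter. In such crosses any cell in which the Cre driver has been active stays red. The central amygdala of both sides was punched from 1 mouse per library, and about 1000 red cells per library were sorted, so that the 4 PKCd and the 4 SST libraries are 8 mice. PKCd replicates 3 and 4 were from mice of 18 weeks and PKCd replicates 1 and 2 from mice of 9 weeks; SST replicates 3 and 4 were from mice of 20 weeks and SST replicates 1 and 2 from mice of 8 weeks. No mouse had a treatment in the labels.

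The older libraries held 964361 to 2522749 estimated reads and the younger ones 10316149 to 18242496, and the file labels carry other flow-cell codes, so age, depth and sequencing run cannot be told apart. The limit that a count of 0 allows, 3 counts, was 0.164 CPM (counts scaled to the library total) at the greatest depth and 3.11 CPM at the lowest. Prkcd, the gene whose Cre driver marked the PKCd cells, stood at 106.5 to 225.7 TPM (length-corrected transcript abundance, scaled to the same total in each library) in PKCd libraries, against 0 to 30.2 TPM in SST libraries. Sst stood at 0.209, 222.7, 4.32 and 13.7 TPM in PKCd replicates 1 to 4, against 116.3 to 296.2 TPM in SST libraries, so that PKCd replicate 2 goes against its label for this gene. The summed level of 10 pan-neuronal and inhibitory-neuron markers was 121 to 599 TPM in PKCd and 142 to 566 TPM in SST libraries, while 10 oligodendrocyte markers summed to 11980 to 30329 TPM in PKCd and 11315 to 60633 TPM in SST libraries. In every library the oligodendrocyte sum was thus far above the neuronal sum. Mbp, an oligodendrocyte marker, alone stood at 7661 to 21940 TPM in PKCd and 3555 to 39700 TPM in SST libraries. The 2 lists hold genes of unlike abundance, so their sums do not give shares of cells.

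The promoters of Slc2a5 and Hk2, the 2 genes whose PKCd and SST levels did not overlap, are shown to give the letters around their start sites. Each window runs from 250 bases before to 50 bases after the start in RefSeq on GRCm38.p6. The Slc2a5 window is chr4:150119094-150119393 on the plus strand, upstream of and into the first exon of a gene spanning chr4:150119344-150144168. The Hk2 window is chr6:82774405-82774704 on the minus strand, and the gene spans chr6:82725025-82774454. Capitals mark GC boxes (GGGCGG), RUNX motifs (TGTGGT) and, in Hk2, hypoxia response cores (ACGTG), each searched on both strands.
Slc2a5: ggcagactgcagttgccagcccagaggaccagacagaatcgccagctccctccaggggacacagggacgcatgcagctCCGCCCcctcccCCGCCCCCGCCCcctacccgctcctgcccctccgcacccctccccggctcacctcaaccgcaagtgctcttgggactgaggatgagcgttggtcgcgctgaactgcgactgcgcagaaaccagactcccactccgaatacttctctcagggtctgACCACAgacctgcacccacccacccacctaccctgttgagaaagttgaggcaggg
Hk2: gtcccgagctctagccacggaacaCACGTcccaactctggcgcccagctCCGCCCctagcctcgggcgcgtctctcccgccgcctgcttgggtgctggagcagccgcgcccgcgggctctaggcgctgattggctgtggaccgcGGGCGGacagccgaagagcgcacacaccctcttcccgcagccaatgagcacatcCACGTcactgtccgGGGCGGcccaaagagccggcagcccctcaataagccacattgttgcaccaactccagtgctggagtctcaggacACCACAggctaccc

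Each window held 3 GC boxes and 1 RUNX motif downstream of them, and the capitals of the 3 motifs do not overlap. The Hk2 window held 2 hypoxia response cores, ACGTG, and the Slc2a5 window had no match to these letters. A GC box was present in 35.7% of the 32851 RefSeq promoter windows of the mouse, a RUNX motif in 16.8% and a hypoxia core in 19.6%. The longer PU.1 motif GAGGAAGT, present in 3.2% of windows, was found in none of the 8 windows that matched one of the 10 genes. The motifs were not limited to the genes whose populations did not overlap: RUNX motifs also stood in the windows of Slc2a1 and Slc2a8, GC boxes in those of Slc2a1, Slc2a6, Slc16a1, Slc16a3 and Khk, and hypoxia cores in those of Slc2a1, Slc16a1, Slc16a3 and Khk. These 4 motifs were kept after others had been scanned, and a match is a stretch of letters, not a shown binding site.

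Slc2a5 was the carrier that set the populations apart. It had 161.6, 88.1, 229.3 and 174.1 TPM in PKCd replicates 1 to 4, against 0.276, 0, 1.09 and 0.649 TPM in SST replicates 1 to 4. These values rest on 5611, 1897, 384 and 460 reads in the PKCd libraries and on 9, 0, 3 and 3 reads in the SST libraries. The lowest PKCd library was thus far above the highest SST library, at either age. The means were 163.3 ± 58.1 TPM in PKCd and 0.505 ± 0.475 TPM in SST libraries, each over 4 libraries with the SD, and the PKCd mean was 323.3 times the SST mean. The fitted log2 fold change was 8.74 ± 1.05 (SE), PKCd over SST, with age class in the model.

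Slc2a1, the main glucose carrier of vessels and astrocytes, had 166.6, 267.1, 309.1 and 593.6 TPM in PKCd replicates 1 to 4, against 5.92, 65.4, 165.7 and 471.9 TPM in SST replicates 1 to 4. It was the most abundant of the 10 genes by mean TPM in both populations, at 334.1 ± 183.1 TPM in PKCd and 177.2 ± 207.2 TPM in SST libraries. The ranges overlapped, since SST replicate 4 lay above 3 of the 4 PKCd libraries. The log2 fold change was 1.68 ± 0.79, with 1.06 without SST replicate 1, 2.34 without SST replicate 4 and 0.99 with no term for age class.

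Slc2a3, the neuronal glucose carrier, had 3.39, 20.9, 17.5 and 19.2 TPM in PKCd replicates 1 to 4, against 5.27, 73.1, 13.5 and 0.167 TPM in SST replicates 1 to 4. The SST libraries contained both the highest and the lowest value of this gene. The log2 fold change was 0.09 ± 1.41, and it lay between −0.68 and 1.33 when single libraries were left out, so no direction can be given. Slc2a8, which encodes an intracellular hexose carrier, had 52.6, 49.6, 11.9 and 9.31 TPM in PKCd replicates 1 to 4, against 15.9, 93.8, 46.6 and 3.66 TPM in SST replicates 1 to 4. Its log2 fold change was −0.48 ± 0.99 and likewise took both signs, from −0.90 to 0.60, as single libraries were left out. Slc2a6, a hexose carrier better known from immune cells, was nearly unread: 6 reads in PKCd replicate 1 and 2 reads in SST replicate 3 were all it had.

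**Figure D1:**
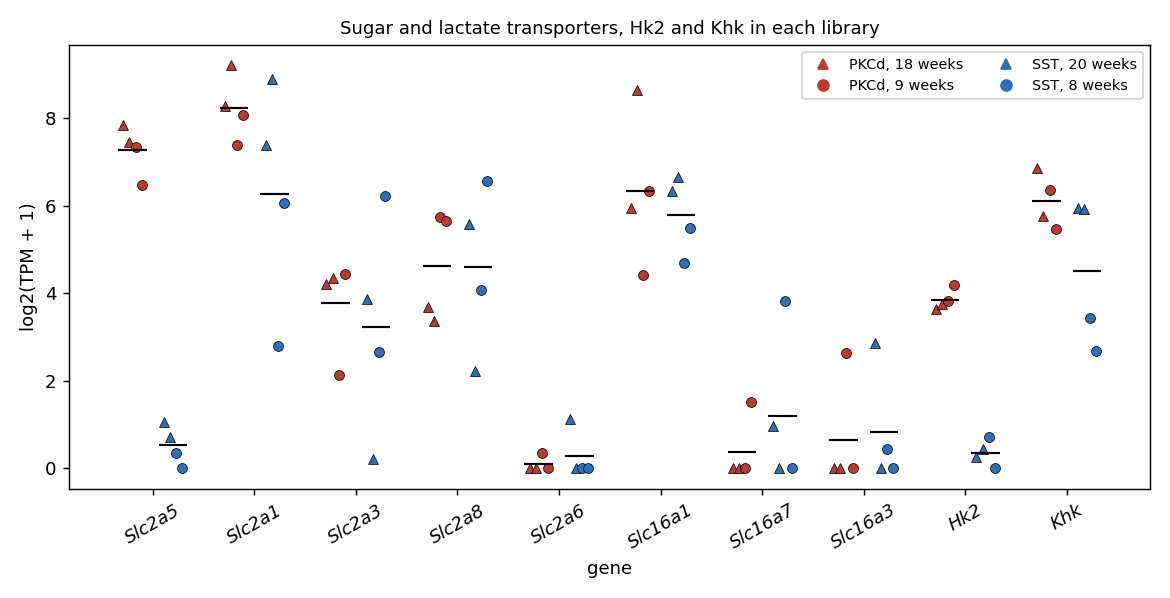
Level of each of the 10 genes in every library, as log2(TPM + 1), PKCd libraries left and SST libraries right (triangles 18 to 20 weeks, circles 8 to 9 weeks); the horizontal bars are the means of these log values over 4 libraries. Slc2a5 (88.1 to 229.3 TPM in PKCd, 0 to 1.09 TPM in SST) and Hk2 are the genes in which the populations do not overlap.

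Within the summed TPM of the 5 hexose carriers, Slc2a5 made up 42.0, 20.7, 40.4 and 21.9% in PKCd replicates 1 to 4, against 1.01, 0, 0.48 and 0.136% in SST replicates 1 to 4. The remainder of the PKCd sum was mostly Slc2a1, at 43.3 to 74.6%. In SST libraries the make-up was not uniform: Slc2a1 made up 21.7, 28.1, 72.7 and 99.1% in replicates 1 to 4. Slc2a8 was the largest share of SST replicate 1, at 58.0%, and of SST replicate 2, at 40.4%. The 5 carriers summed to 384.4 to 796.3 TPM in PKCd libraries, against 27.3 to 476.3 TPM in SST libraries.

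**Figure D2:**
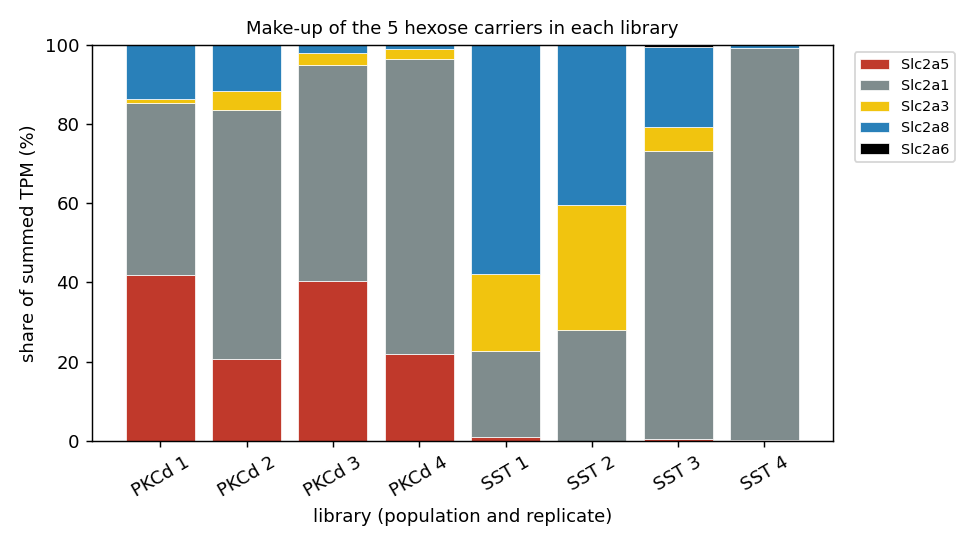
Share of each hexose carrier in the summed TPM of the 5 carriers, in percent, for the 4 PKCd libraries (left) and the 4 SST libraries (right). The Slc2a5 segment takes 20.7 to 42.0% of the PKCd bars and 0 to 1.01% of the SST bars.

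Of the lactate carriers, Slc16a1 was the one read in every library. It had 20.3, 79.2, 60.5 and 400.3 TPM in PKCd replicates 1 to 4, against 25.0, 43.7, 79.7 and 100.02 TPM in SST replicates 1 to 4. The populations overlapped, and the higher PKCd mean (140.1 ± 175.2 TPM, against 62.1 ± 34.0 TPM in SST libraries) rests on PKCd replicate 4. The log2 fold change was 1.00 ± 0.64, and 0.15 without PKCd replicate 4. Slc16a1 supplied 79.6 to 100% of the summed TPM of the 3 lactate carriers in PKCd libraries and 64.9 to 100% in SST libraries.

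The other lactate carriers were read in few libraries. Slc16a3, the MCT4 gene, had 5.20 TPM from 143 reads in PKCd replicate 1 and 0 in the other PKCd libraries, against 0.366 TPM in SST replicate 1, 6.28 TPM in SST replicate 3 and 0 in the other SST libraries. The reads were assigned to different transcript targets. All SST reads, 9 in replicate 1 and 13 in replicate 3, were on NM_001038654, and most reads of PKCd replicate 1 on NM_030696. Whether the transcripts differed was not tested. Slc16a7, the neuronal MCT2 gene, had 1.88 TPM from 31 reads in PKCd replicate 2 alone, against 13.2 TPM from 329 reads in SST replicate 1, 0.953 TPM from 2 reads in SST replicate 3 and 0 in the other SST libraries. Neither gene passed the filter on low counts, and for both a level under the limit of the shallow libraries would not have been detected. Zeros were not confined to the shallow libraries. Slc16a3 had 0 reads in PKCd replicate 2 and SST replicate 2, and Slc16a7 in PKCd replicate 1 and SST replicate 2. The limits of these libraries were 0.164 to 0.291 CPM.

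Hk2, the gene of a hexokinase that binds the outer mitochondrial membrane, was the other gene whose populations did not overlap. It had 13.2, 17.4, 11.4 and 12.6 TPM in PKCd replicates 1 to 4, against 0.653, 0, 0.199 and 0.354 TPM in SST replicates 1 to 4. The PKCd values varied little, and the reads behind them numbered 843, 685, 35 and 61.0 in PKCd libraries, against 39, 0, 1 and 3 in SST libraries. The means were 13.7 ± 2.59 TPM in PKCd and 0.301 ± 0.275 TPM in SST libraries, a ratio of 45.3, and the log2 fold change was 5.31 ± 1.63. Its size rests on few SST reads: it was 6.93 without SST replicate 1, which held 39 of the 43 SST reads, 4.90 without SST replicate 2, 6.47 after thinning to the shallowest library and 3.50 by limma on log2(TPM + 1).

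Khk, whose product starts fructose breakdown, was not divided between the populations as Slc2a5 was. It had 81.4, 43.4, 115.0 and 53.7 TPM in PKCd replicates 1 to 4, against 9.88, 5.46, 61.0 and 60.1 TPM in SST replicates 1 to 4. The SST libraries of 20 weeks thus lay within the PKCd range, although they held 1.09 and 0.649 TPM of Slc2a5. The log2 fold change was 1.71 ± 1.12.

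By mean TPM the order in PKCd libraries was Slc2a1, Slc2a5, Slc16a1, Khk, Slc2a8, Slc2a3, Hk2, Slc16a3, Slc16a7 and Slc2a6. In SST libraries it was Slc2a1, Slc16a1, Slc2a8, Khk, Slc2a3, Slc16a7, Slc16a3, Slc2a5, Hk2 and Slc2a6. Neighbours in either order overlapped in their ranges, except that every PKCd library had more Hk2 than any PKCd library had Slc16a3. The fructose carrier stood at rank 2 in PKCd and at rank 8 in SST libraries.

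The PKCd against SST contrast chose these genes, and Slc2a5 and Hk2 passed the filter on low counts through their PKCd libraries, so the counts that follow are no test of them. Of the 7 genes with a fit, 1 (Slc2a5) passed an adjusted p of 0.05 in edgeR's quasi-likelihood test with Benjamini-Hochberg adjustment over all genes, beside 0.282% of the 11328 genes tested, all of them higher in PKCd libraries. DESeq2 called Slc2a5 and Hk2, beside 4.01% of genes. The same 2 of 7 did not overlap between populations, beside 3.88% of all tested genes higher in every PKCd library and 6.94% in either direction. The median log2 fold change of the 7 genes was 1.68, beside −0.08 over all tested genes.

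The population difference was also fitted within each age class. In the 18 to 20 week libraries alone and in the 8 to 9 week libraries alone, the log2 fold change, PKCd over SST, was 7.88 and 9.48 for Slc2a5 and 5.32 and 5.21 for Hk2. It was 0.53 and 2.88 for Khk and 0.49 and 2.84 for Slc2a1, while Slc16a1 had 1.37 and 0.56. Slc2a3, with 1.57 and −1.45, and Slc2a8, with −1.11 and 0.09, changed sign between the age classes. Each of these fits compared 2 libraries with 2. An interaction of population and age class, tested in edgeR over all 8 libraries, was called for 0 of the 7 genes, beside 0% of all genes, and for 0 of the 7 at an unadjusted p under 0.05, beside 4.12% of all genes. DESeq2 called the interaction in 0.68% of genes and in 0 of the 7. Without PKCd replicate 2, the library with Sst reads, the population difference was 8.87 for Slc2a5, 5.27 for Hk2, 1.76 for Khk and 1.31 for Slc2a1. It was 0.63 for Slc16a1, 0.21 for Slc2a3 and −0.58 for Slc2a8. With all libraries Slc16a1 had 1.00 ± 0.64, so its shift was smaller than the standard error.

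Microglial RNA differed between the populations in the same direction as Slc2a5 and Hk2. The 12 microglial markers, all above 0 in all 8 libraries, summed to 35413, 29752, 47907 and 29618 TPM in PKCd replicates 1 to 4, against 5222, 1666, 1247 and 455 TPM in SST replicates 1 to 4. Their mean TPM was higher in PKCd libraries by 10.6-fold (Aif1) to 53.7-fold (Fcrls), with a median of 17.1-fold. Of the 12, 5 passed the adjusted p of 0.05 in edgeR, beside 0.282% of all tested genes. The ratio of 323.3 for Slc2a5 was above that range and the ratio of 45.3 for Hk2 within it. The SST means behind these ratios rest on 15 reads of Slc2a5 and 43 of Hk2. A ratio above the range was not particular to Slc2a5. Of the genes named below for likeness of pattern, Hvcn1 averaged 124.7 TPM in PKCd and 0.703 TPM in SST libraries. Fgd2 averaged 167 TPM in PKCd and 0.626 TPM in SST libraries. In bulk samples such as these, fewer cells of a type and less RNA per cell cannot be told apart, and the part of microglial RNA in these differences was not tested.

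Slc2a5 is also given per microglial marker level of the same library. It had 4.56, 2.96, 4.79 and 5.88 TPM per 1000 TPM of summed markers in PKCd replicates 1 to 4, against 0.0529, 0, 0.878 and 1.43 in SST replicates 1 to 4. The lowest PKCd quotient was above the highest SST one. Slc2a5 had been singled out for this contrast, and the share of all genes with such a separation was not computed. Nothing is therefore read from the separation of the quotients. The SST quotients rest on 9, 0, 3 and 3 reads of Slc2a5, and no test was made of them. Hk2 on the same scale overlapped, at 0.238 to 0.583 in PKCd and 0 to 0.778 in SST libraries. Khk overlapped too, at 1.46 to 2.40 in PKCd libraries, against 1.89 to 132 in SST libraries, the highest SST quotients being those of the older mice. Of the genes described below, Hk3 overlapped, at 0.214 to 1.09 in PKCd and 0 to 0.442 in SST libraries. Sord overlapped as well, at 1.07 to 1.76 in PKCd and 0.0331 to 42.8 in SST libraries.

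Markers of border-associated macrophages, a further brain macrophage, summed to 15.9 to 517 TPM over 7 genes in PKCd libraries, against 0.111 to 3.61 TPM in SST libraries. Most of each PKCd sum was Pf4, at 12.4 to 382.2 TPM in PKCd libraries and at 0 in all SST libraries. Lyve1 was at 0 in all PKCd libraries, and Ms4a7 was read in PKCd replicate 2 alone. Mrc1 was at 0.619, 19.5, 1.69 and 0 TPM in PKCd replicates 1 to 4. Cd163 averaged 0.996 TPM in PKCd and 1.12 TPM in SST libraries. F13a1 was above 0 in PKCd replicates 1, 2 and 4, and Cbr2 in PKCd replicates 2 and 4. PKCd replicate 2, the highest PKCd library in the sum, was the lowest PKCd library in Slc2a5. Whether these cells contributed Slc2a5 reads was not tested.

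Slc2a1 and Slc16a1, both carriers of the capillary wall, are set beside endothelial markers. The 12 endothelial markers summed to 344, 2894, 1643 and 5047 TPM in PKCd replicates 1 to 4, against 307, 241, 1542 and 4267 TPM in SST replicates 1 to 4. Of the 12, 9 were above 0 in SST replicates 1 and 2 and all in the other libraries. In SST replicate 2, Mfsd2a (125.4 TPM) and Esam (114.5 TPM) made up nearly all of the sum. The other markers had at most 3 reads each there. The median log2 fold change of the 12, PKCd over SST, was 3.18, with −0.97 for Mfsd2a and −0.24 for Esam. The adjusted p in edgeR was passed by 0, beside 0.282% of all tested genes. An unadjusted p under 0.05 was found for 3, beside 6.67% of all tested genes. In both populations the library with the highest endothelial sum, replicate 4, also had the most Slc2a1 and the most Slc16a1. PKCd replicate 4 also had the highest oligodendrocyte sum of its population, 30329 TPM. SST replicate 4, at 12164 TPM, was not the highest of its own. The sum of 10 astrocyte markers was highest in PKCd replicate 1 (1882 TPM) and SST replicate 3 (3201 TPM). PKCd replicate 1, with the lowest endothelial sum of its population, had 166.6 TPM of Slc2a1. Mural-cell markers, those of pericytes and vascular smooth muscle, summed to 102.5 to 3765 TPM in PKCd and 2145 to 10756 TPM in SST libraries. The part of vessel, oligodendrocyte or astrocyte RNA in the levels of both carriers was not tested.

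**Figure D3:**
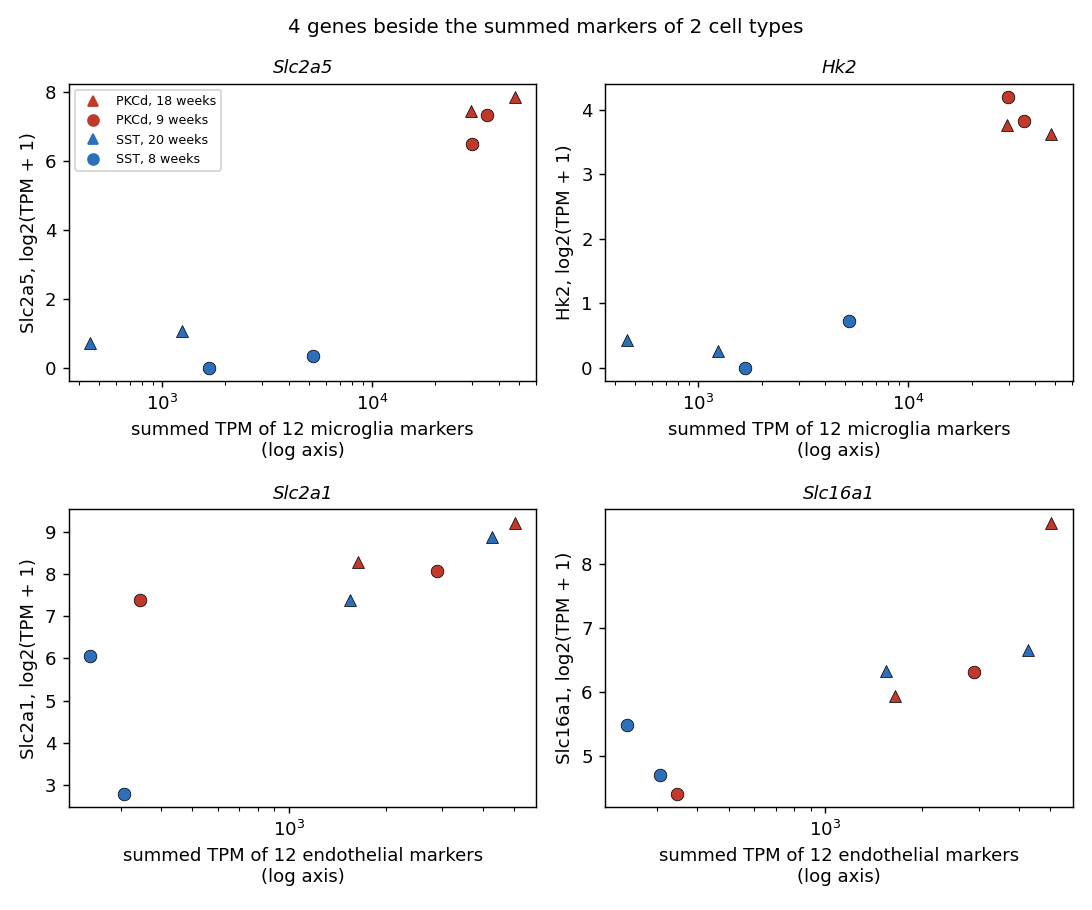
Level, as log2(TPM + 1), of Slc2a5 and Hk2 against the summed TPM of 12 microglial markers (log axis), and of Slc2a1 and Slc16a1 against the summed TPM of 12 endothelial markers (log axis), 1 point per library (PKCd and SST in 2 colours, triangles 18 to 20 weeks, circles 8 to 9 weeks). The 4 PKCd libraries stand apart at 29618 to 47907 TPM of microglial markers, and the endothelial sums of the populations overlap.

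Age was a contrast that the choice of the genes did not use. None of the 7 tested genes passed an adjusted p of 0.05 in edgeR between 18 to 20 weeks and 8 to 9 weeks, beside 0.053% of all tested genes, and DESeq2 called 0 of the 7, beside 4.9% of genes. At an unadjusted p under 0.05 there were 2 of 7, Slc2a1 and Slc16a1, beside 8.35% of all tested genes. No gene of the 10 had age classes that did not overlap, beside 7.68% of all tested genes. The glucose carrier of vessels, Slc2a1, had 309.1 and 593.6 TPM in older PKCd and 165.7 and 471.9 TPM in older SST libraries, against 166.6 and 267.1 TPM in younger PKCd and 5.92 and 65.4 TPM in younger SST libraries. Its log2 fold change, older over younger, was 2.01 ± 0.79, with an adjusted p of 0.523 in edgeR, and within single populations it was 0.86 in PKCd and 3.23 in SST libraries. Slc16a1 had a log2 fold change of 1.56 ± 0.65, with an adjusted p of 0.548 in edgeR, and 0.82 without PKCd replicate 4.

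The endothelial sum was 1542 to 5047 TPM in older and 241 to 2894 TPM in younger libraries, and the erythroid marker sum was 452 to 8472 TPM in older and 0.494 to 412.7 TPM in younger libraries. The part of vessel and blood RNA in the age differences was not tested. The other tested genes had log2 fold changes, older over younger, of 1.42 ± 1.11 for Khk, 1.09 ± 0.81 for Slc2a5, −0.66 ± 1.39 for Hk2, −1.14 ± 1.42 for Slc2a3 and −1.87 ± 1.01 for Slc2a8, with adjusted p-values in edgeR from 0.657 to 0.924. The signs for Hk2 and Slc2a3 were not kept under every setting. The median over all tested genes was −0.16 in this contrast and −0.06 with DESeq2-style scaling, and the changes above are read against that shift.

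**Figure D4:**
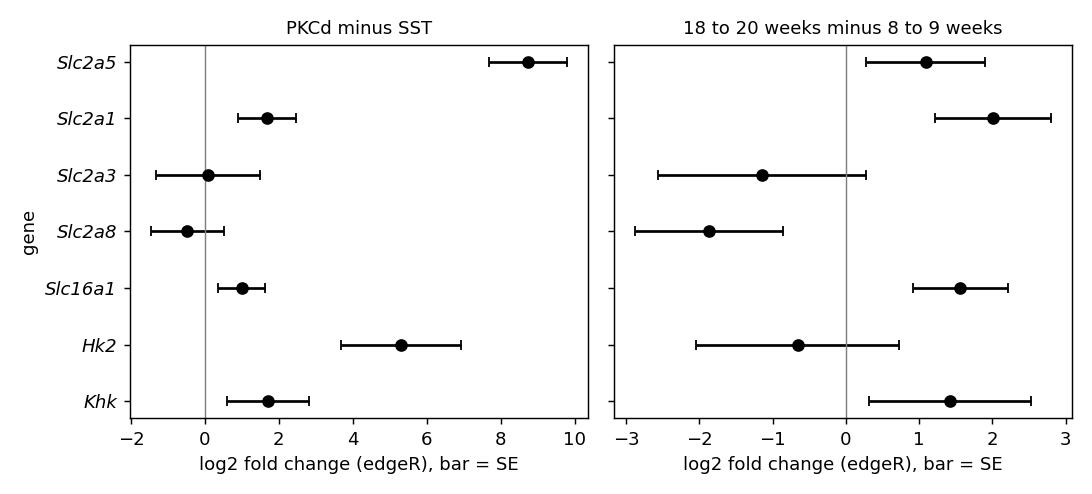
Log2 fold change of the 7 tested genes with its standard error from edgeR, PKCd minus SST libraries (left) and 18 to 20 weeks minus 8 to 9 weeks (right); the vertical line marks no difference. Slc2a5 (8.74) and Hk2 (5.31) lie farthest to the right in the population panel, and in the age panel Slc2a1 (2.01) lies highest and Slc2a8 (−1.87) lowest.

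The wider sugar pathway was described through 73 other genes in 7 lists, of which 47 were tested. None passed an adjusted p of 0.05 in edgeR between PKCd and SST libraries in either direction, beside 0.282% of all tested genes. An unadjusted p under 0.05 was found for 7, beside 6.67% of all tested genes, and DESeq2 called 6, beside 4.01%. In simulated counts the edgeR fit recovered 33.9% of 16-fold differences, so 0 calls do not show equal levels. Their median log2 fold change was 0.21, beside −0.08 over all tested genes. In 5 of the 47 every PKCd library was above every SST library (Hk3, Sord, Pfkl, Mlxipl and Txnip), and in 0 of 47 every PKCd library was below, beside 3.88% and 3.05% of all tested genes.

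Of the other hexokinases, 2 of 5 were tested and 0 passed. Hk3, a hexokinase of blood and immune cells, had 38.6, 16.4, 10.3 and 11.8 TPM in PKCd replicates 1 to 4, against 2.31, 0.0404, 0 and 0 TPM in SST replicates 1 to 4, with a log2 fold change of 5.71 ± 1.95 and an adjusted p of 0.463 in edgeR. Hk1, the general brain hexokinase, averaged 47.1 ± 29.5 TPM in PKCd and 8.93 ± 10.8 TPM in SST libraries, with an adjusted p of 0.617 in edgeR. Hk1 overlapped between the populations and Hk3 did not, and all 3 hexokinases with a fit, Hk2 included, had a positive log2 difference.

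In the polyol and fructose list, 3 of 8 genes were tested and 0 passed. Sord, whose product makes fructose from sorbitol, had 38.8, 35.4, 51.2 and 52.2 TPM in PKCd replicates 1 to 4, against 0.173, 0.106, 22.6 and 19.5 TPM in SST replicates 1 to 4, with an adjusted p of 0.652 in edgeR. As with Khk, the older SST libraries held more Sord than the younger ones, at little or no Slc2a5. Akr1b3, aldose reductase, which makes sorbitol from glucose, averaged 141.1 ± 14.2 TPM in PKCd and 117.4 ± 68.3 TPM in SST libraries. Aldoc, the brain aldolase and an astrocyte gene, had a log2 fold change of −0.85 ± 0.65.

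In the glycolysis list, 18 of 20 genes were tested, 0 passed, and the median log2 fold change was −0.01. Pfkl, a subunit of phosphofructokinase, had 49.6, 175.3, 97.5 and 133.3 TPM in PKCd replicates 1 to 4, against 12.1, 10.4, 32.9 and 35.1 TPM in SST replicates 1 to 4. Its log2 fold change was 2.55 ± 0.62 with an adjusted p of 0.193 in edgeR, the lowest of the 47 genes. Pfkfb4 (4.12 ± 2.86) and Eno3 (1.75 ± 2.37) had larger errors than Pfkl, while the lactate dehydrogenase genes had log2 fold changes of −0.26 ± 0.50 (Ldha) and −0.07 ± 0.44 (Ldhb).

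Of the regulators of sugar uptake genes, 5 of 6 were tested and 0 passed. Mlxipl, the gene of the sugar-responsive factor ChREBP, averaged 32.8 ± 3.51 TPM in PKCd and 4.97 ± 6.81 TPM in SST libraries, with an adjusted p of 0.509 in edgeR. Txnip, which lowers glucose uptake, averaged 156.9 ± 89.3 TPM in PKCd and 38.4 ± 35.2 TPM in SST libraries, with an adjusted p of 0.347 in edgeR. Mlxip, a related factor of the same family, had a log2 fold change of 2.14 ± 1.86. Its populations overlapped, unlike those of Mlxipl and Txnip.

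The remaining lists gave 0 passing genes as well. Of the other hexose carriers, 2 of 10 were tested, with log2 fold changes of −2.47 ± 2.17 for Slc2a10 and 0.11 ± 0.61 for Slc50a1, and Slc2a2, the hepatic glucose carrier, had 0 reads in all libraries. Of the other SLC16 carriers, their chaperones and pyruvate carriers, 11 of 17 were tested, with a median log2 fold change of 0.07. Slc16a6, of the same family, averaged 29.7 ± 27.6 TPM in PKCd and 3.11 ± 4.05 TPM in SST libraries (3.96 ± 1.56 on the log2 scale), while Slc16a11 (−2.97 ± 2.86) and Slc16a12 (−2.76 ± 1.43) had negative values. In the pentose phosphate list 6 of 7 were tested, with a median of 0.50, the largest being 1.47 ± 0.91 for Pgd, 0.99 ± 0.51 for Tkt and 0.79 ± 1.01 for G6pdx.

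**Figure D5:**
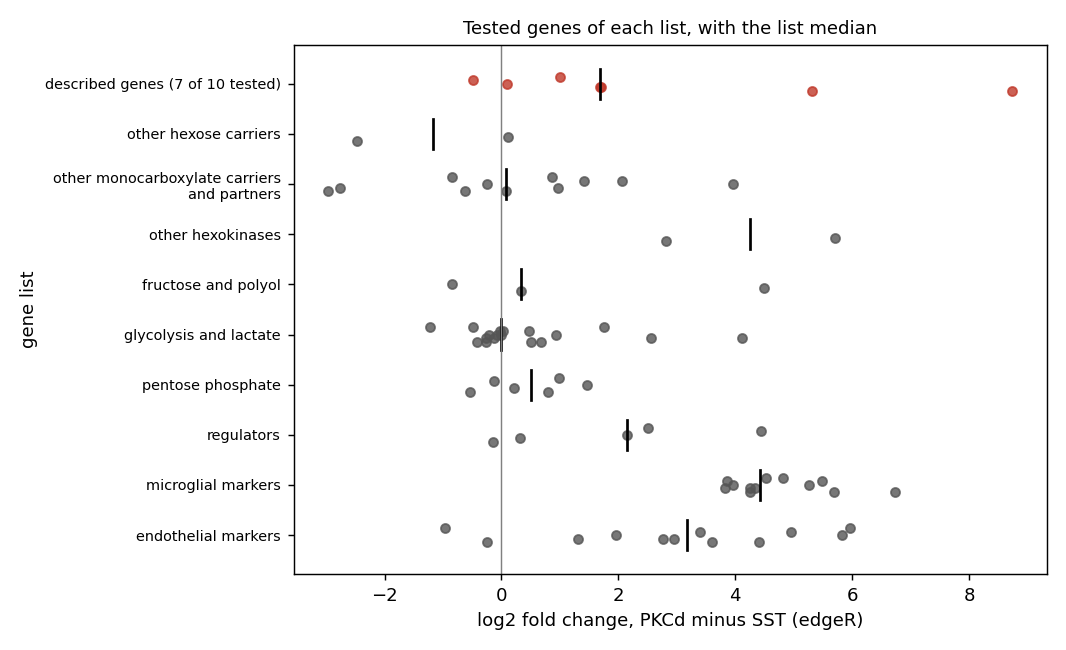
Log2 fold change, PKCd minus SST libraries, of each tested gene in the 7 sugar pathway lists, of the 7 tested genes described above (top row) and of the microglial and endothelial markers (bottom rows), 1 point per gene with a bar at the list's median. Slc2a5 lies at 8.74, and 0 of the 47 list genes passed an adjusted p of 0.05 in edgeR, beside 0.282% of all tested genes.

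The genes whose pattern over the 8 libraries was most like that of Slc2a5 were sought among 8039 genes by Pearson's r on log2(TPM + 1). Among the closest were Csf3r, a myeloid cytokine receptor (0.996), Klk8, a serine protease (0.996), Hvcn1, a proton channel (0.993), and Fermt3, an integrin adaptor of blood cells (0.990). These r describe 8 libraries that fall into 2 groups for Slc2a5 and carry no test. For Hk2 the nearest were Lrrc3 (0.994), Fgd2 (0.987) and Arl11 (0.986). For Khk they were Aar2 (0.985), Prcp (0.974) and Mef2c (0.969), and for Slc2a1 they were Atg13 (0.961), Exoc7 (0.957) and Hnrnph2 (0.952). Slc16a1 was most like Dab2 (0.949), Ifnar1 (0.944) and Tfrc, the transferrin receptor (0.909). Slc2a3 was most like Atrip (0.958), Kif1a (0.956) and Epc1 (0.947), and Slc2a8 most like Tmem248 (0.975), Slc22a17 (0.968) and Ppm1b (0.945). None of the genes named here for likeness was in the marker or pathway lists. All these r are the top values out of 8039 candidates over 8 libraries, and none was tested against chance.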

How the data were processed

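RNA of about 1000 sorted cells per mouse was sequenced in 8 libraries, 4 per population. Libraries were made with a SMARTer smRNA-Seq kit, per the labels' protocols. Per the submitters' processing notes, kallisto 0.43.0 and BWA 0.7.12 were used, with the build mm10 and no stated roles; the files have kallisto's columns. The deposited files give estimated counts and TPM per transcript target, per the file headers, and the authors' effective length equals the length minus 199 in 30376 of 30404 targets. Whether strand was used is not given, so antisense reads cannot be set apart.

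Targets were named by RefSeq (30080, GRCm38.p6) or GENCODE (147), and 690 carried a suffix for a duplicate, which was removed. The 177 targets that stayed unnamed were kept under their own identifiers and counted among the 20702 genes. Counts and TPM were summed per symbol, and counts were rounded. edgeR 4.0.16 (R 4.3.3) fitted quasi-likelihood models with TMM scaling, filterByExpr by population, and terms for population and age class, with p adjusted over 11328 genes by Benjamini-Hochberg at 0.05. DESeq2 1.42.0, limma 3.58.1 on log2(TPM + 1) and log2(TPM + 0.1), other scalings and filters, thinning, and leaving out each library were alternatives. The fit was tested on simulated data. It recovered 3.33% of simulated 4-fold population differences, 33.9% of 16-fold and 66.7% of 64-fold ones. A gene that was not called may therefore still differ. Each library is 1 mouse, and limits for 0 counts cover counting error only.

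The 10 genes, the pathway and marker lists and the tests were chosen with earlier results of these data known. Beyond these genes, the text names the 3 tested genes with the largest log2 fold change of each pathway list, the 5 genes most like Slc2a5 (of which 1 is not reported here) and the 3 most like each other gene. Candidates had a mean of at least 10 TPM and were above 0 in at least 4 libraries. Ldha, Ldhb and Slc2a2 were named in addition, after their values were seen.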

Additional observations from a re-analysis of the deposited data

Results flagged for a closer look

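Among 20 groups of 4 libraries examined, 1 gene in 1 population each, 7 had a library farther from the other 3 than Dixon's critical value for 4 samples allows; chance gives about 1 in 20 for continuous values. That share has no bearing on 4 of the 7, in which the other 3 libraries were at 0 and any reads at all set a library apart (Slc2a6 in both populations, and Slc16a3 and Slc16a7 in PKCd libraries). For Slc16a1, the MCT1 gene, PKCd replicate 4 stood apart at 400.3 TPM. Its sums of endothelial markers (5047 TPM) and of erythroid markers (8472 TPM) were the highest of the 8 libraries. SST replicate 4, with 4267 TPM of endothelial markers, had 100.02 TPM of Slc16a1. The cause was not tested.

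The other 6 concern carriers read in few libraries. Slc16a3, the MCT4 gene, had 5.20 TPM in PKCd replicate 1 and 6.28 TPM in SST replicate 3, with at most 0.366 TPM elsewhere. Slc16a7, the MCT2 gene, had 1.88 TPM in PKCd replicate 2 and 13.2 TPM in SST replicate 1. Slc2a6 had 0.282 TPM in PKCd replicate 1 and 1.19 TPM in SST replicate 3, from 6 and 2 reads.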

How the results depend on the processing

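The log2 fold change, PKCd over SST, was 6.75 to 9.48 for Slc2a5 and 3.50 to 6.93 for Hk2 over the alternatives. The count of calls among the 7 tested genes, which this contrast chose and which therefore supports nothing, was 1, and 2 by DESeq2 and 0 within either age class. Of the pathway lists, 2 genes (Pfkl, Txnip) were called with no filter and 6 by DESeq2 (Hk3, Mlxipl, Pfkl, Slc16a6, Sord, Txnip), against 0. DESeq2 called 4.01% of all tested genes. Over all genes the count between PKCd and SST libraries was 32, and 269 with no filter, 454 by DESeq2, 147 and 68 by limma with a pseudocount of 1 and 0.1, 57 after thinning to the shallowest library and 0 within each age class. Leaving out single libraries gave 10 to 52: 15, 21, 10 and 17 without PKCd replicates 1 to 4, and 52, 23, 10 and 13 without SST replicates 1 to 4. Between older and younger libraries the count was 6, and 2 with DESeq2-style scaling, 249 with no filter, 2 at 10 CPM in 4 libraries, 555 by DESeq2, 53 and 12 by limma, 13 after thinning, 1 in PKCd and 0 in SST libraries alone, and 0 to 2 without single libraries. The age difference turned round for Hk2, at 0.04 with a pseudocount of 0.1 and 0.56 after thinning, with −0.94 to 0.79 without single libraries (0.79 without SST replicate 1), and for Slc2a3, at 0.39 in PKCd libraries alone and −1.84 to 0.18 without single libraries (0.18 without SST replicate 2); the causes were not tested. Slc2a3, Slc2a5 and Hk2 gave no age value in SST libraries alone.

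Replicate numbers name mice and do not pair them: deviations of same-numbered libraries correlated at 0.0615 to 0.174, above 0.1 in 2 of 4 pairs, and 4 of 8 libraries correlated best with their own number. Same-numbered libraries share age class and depth, so these correlations cannot show pairing. With other numbers of the same age class, PKCd replicate 1 and SST replicate 2 had 0.170. PKCd replicate 3 and SST replicate 4 had 0.154. A replicate block gave 24 calls over all genes, 1 of the 7 tested genes and 0 of the pathway lists.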
